A study of Mus musculus with 4 samples.

Results

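Livers of mice whose diet held 0.2% of the primary bile acid cholic acid (CA) were compared with those of mice on a control diet, both without the liver carcinogen diethylnitrosamine (DEN). The comparison covered all 18194 genes named by a probe set with 1 gene symbol, of which 11651 were expressed. Each group was 1 microarray that held a pool of liver RNA from 3 to 5 mice, aged 10 months. The series holds 4 such arrays. The other two are from mice given DEN and then the control diet or the CA diet, and their values stand beside those without DEN only where named. The sources used here do not give strain, sex, length of feeding, fasting state or time of day. With 1 array a group there was no replicate error and no test. Every difference is that of 2 pools, and mouse-to-mouse variation cannot be told apart from the diet.

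Bile acids are made from cholesterol in hepatocytes, and the enzyme Cyp7a1 sets the rate while Cyp8b1 directs the product towards cholic acid. Bile acids that return to the liver bind the nuclear receptor FXR (Nr1h4), whose target Nr0b2 (SHP) represses both enzymes, while FXR raises the export pump genes. Cholesterol synthesis is held down when cells are rich in sterol, because the transcription factor SREBP2 (Srebf2) then stays in the endoplasmic reticulum. Its sites in promoters often lie beside a CCAAT box, which binds the factor NF-Y.

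The promoter sequences of 6 genes are printed here because their genes belong to the groups whose members differed in the same direction. These are 4 sterol synthesis genes, which were lower on the CA diet, and 2 genes of dividing cells, which were higher. Each runs 5′ to 3′ on the strand of its gene, from 200 bases to 1 base before the annotated start in the RefSeq annotation of GRCm38.p6. Capitals mark the box CCAAT, the sterol response core TCACCCCA and the cell cycle element TTTGAA, each as written or as its reverse complement. Touching matches run together. Msmo1 lies at chr8:64733579-64733778 on the minus strand, Idi1 at chr13:8885406-8885605 on the plus strand, Hmgcs1 at chr13:119690151-119690350 on the plus strand and Cyp51 at chr5:4104698-4104897 on the minus strand. Ube2c lies at chr2:164769729-164769928 on the plus strand and Mki67 at chr7:135716380-135716579 on the minus strand.
Msmo1: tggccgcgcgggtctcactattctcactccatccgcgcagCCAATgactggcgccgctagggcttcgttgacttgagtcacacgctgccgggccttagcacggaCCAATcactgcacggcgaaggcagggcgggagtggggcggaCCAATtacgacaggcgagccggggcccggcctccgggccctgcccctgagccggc
Idi1: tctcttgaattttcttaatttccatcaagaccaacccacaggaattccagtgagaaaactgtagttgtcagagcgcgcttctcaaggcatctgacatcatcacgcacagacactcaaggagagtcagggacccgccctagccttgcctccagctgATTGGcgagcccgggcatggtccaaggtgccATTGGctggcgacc
Hmgcs1: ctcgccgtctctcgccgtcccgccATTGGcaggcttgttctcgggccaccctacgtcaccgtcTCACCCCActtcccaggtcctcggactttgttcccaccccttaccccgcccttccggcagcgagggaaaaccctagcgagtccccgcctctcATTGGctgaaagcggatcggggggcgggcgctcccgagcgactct
Cyp51: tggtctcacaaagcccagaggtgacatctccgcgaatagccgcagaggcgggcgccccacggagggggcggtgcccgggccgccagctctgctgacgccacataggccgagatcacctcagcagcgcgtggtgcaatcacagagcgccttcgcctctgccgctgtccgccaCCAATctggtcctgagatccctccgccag
Ube2c: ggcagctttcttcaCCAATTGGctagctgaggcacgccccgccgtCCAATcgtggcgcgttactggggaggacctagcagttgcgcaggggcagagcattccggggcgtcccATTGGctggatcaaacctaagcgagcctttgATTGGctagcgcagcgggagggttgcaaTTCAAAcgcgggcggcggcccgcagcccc
Mki67: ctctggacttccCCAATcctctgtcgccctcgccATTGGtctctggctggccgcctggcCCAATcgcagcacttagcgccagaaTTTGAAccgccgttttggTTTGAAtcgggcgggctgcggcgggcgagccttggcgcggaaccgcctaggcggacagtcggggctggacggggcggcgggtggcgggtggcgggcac

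CCAAT stood on either strand in the 250 bases before the start of 37.49% of 27025 genes and of 39.91% of 9418 expressed genes. Among genes with a sequence in the RefSeq table, it stood in 6 of 7 promoters of the mevalonate pathway to squalene and in 9 of 10 of the steps from squalene to cholesterol. It stood in 12 of the 13 such genes that were lower by 2-fold or more on the CA diet. TCACCCCA was found in 1 of the 17 sterol synthesis promoters, that of Hmgcs1, against 1.536% of all genes, and in the promoter of Srebf2 itself. In the mitosis list, CCAAT stood in 29 of 41 promoters and TTTGAA in 15 of 41, against 18.26% of all genes and 13.05% of expressed genes for TTTGAA. Of the 8 mitosis genes that were at least 2-fold higher on the CA diet and had a sequence, 7 held TTTGAA and 7 held CCAAT. With or without a sequence there were 9 such genes, of which 6 had a control-diet level close to background, under the limit given below. With low values raised to that limit 3 of the 9 stayed at 2-fold. Both forms searched of the serum response (CArG) box stood in 0 and 1 of 28 promoters of immediate early genes, the AP-1 letters TGACTCA in 1 and the cyclic AMP letters TGACGTCA in 3. The CArG forms, in the same order, stood in 0.074% and 0.081% of all genes and in 0.011% and 0.085% of expressed genes. TGACTCA stood in 5.16% of all genes and 4.31% of expressed genes, and TGACGTCA in 1.77% and 2.87%. The inverted repeat that FXR binds (IR-1) was in 0 of 5 promoters of the classic bile acid pathway and in 2 of all 27025. A match describes letters and not a bound site.

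Most of the liver transcriptome differed little between the diets. Levels are given on the log2 scale of the deposited values, a gene took the probe set whose 4-array mean was highest, and a gene was called expressed where that mean reached 4.855, the median over probe sets. Of 11651 expressed genes, 11155 (95.74%) differed by less than 1.5-fold, and the median log2 difference was 0.015. Of all 11651, 6163 lay above 0 and 5440 below 0, and counts of list members above or below 0 stand beside these. The CA diet had 77 genes at least 2-fold higher, which is 0.661% of those expressed, and 69 genes 2-fold lower or more, which is 0.592%. Both directions together make 1.25%. Only 3 of the higher genes passed 4-fold, against 17 of the lower ones. Of the 77 higher genes, 46 were members of a gene list used here, and of the 69 lower genes 40 were, 16 of them in sterol synthesis. The lists held 1041 of the 18194 named genes. They were chosen with earlier results of these data known, so this membership is only a description.

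Several references bear on how far single values can be read. Where a gene had a second expressed probe set, the differences of both varied around each other with an SD of 0.248 (4816 genes), which is error within the same 2 arrays and holds no mouse-to-mouse part. The 18 hybridisation control probe sets had a median difference of -0.05, with none larger than 0.305. The 24 poly-A control probe sets, RNAs usually added before labelling, stood higher on the CA array by a median of 0.31 (range 0.16 to 0.64), and the 3 probe sets for 18S ribosomal RNA by 0.46. The part of labelling in the higher genes was not tested. Of the 29 higher genes with other expressed probe sets, 27 had all of them on the same side and 13 had all of them past 2-fold. Of the 26 such lower genes these were 23 and 15. A level under 4.855 is close to background, so for a fold such a level was set to 4.855, and the fold is then a lower bound ("at least"). Among the higher genes 19 had such a level on 1 of the 2 arrays, or on both, and among the lower genes 17 did.

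**Figure D1:**
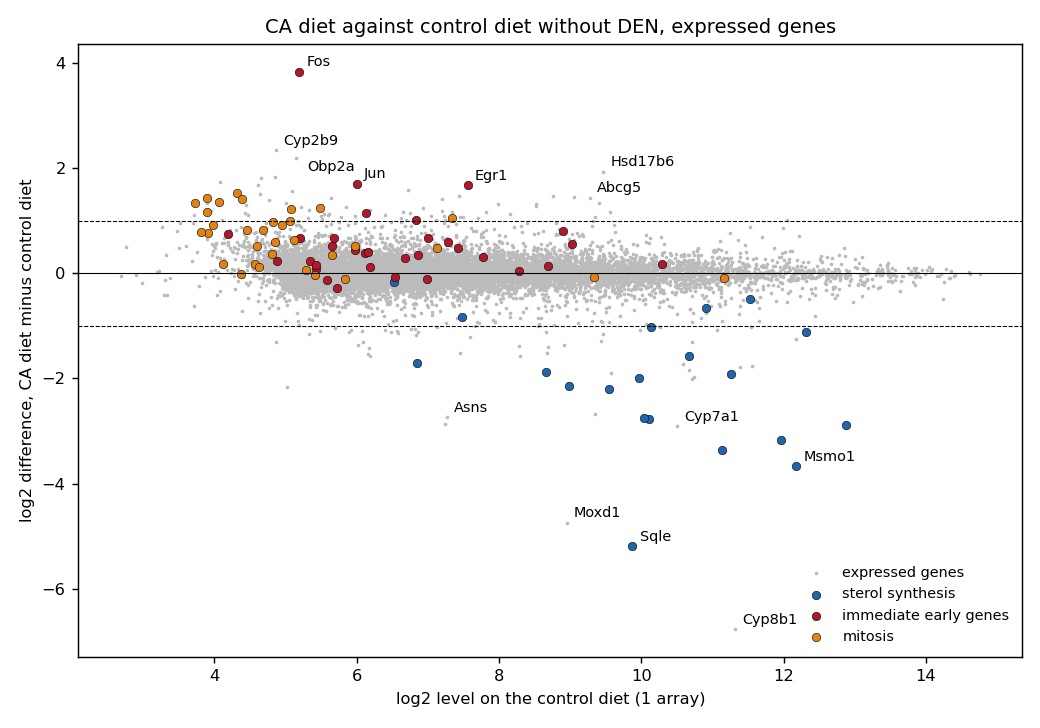
Log2 difference between the CA diet and the control diet (vertical axis) against the log2 level on the control diet (horizontal axis) for expressed genes, each point 1 gene on 1 array per group, with dashed lines at 2-fold. Sterol synthesis genes (blue) lie below 0 at medium and high levels, while mitosis genes (orange) lie mostly above 0 at levels under 6.

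Both RNA pools had the marks of liver. The 8 expressed hepatocyte markers, such as Alb, Ttr and Cyp2e1, had a median difference of 0.0015, and their summed linear signal on the CA diet was 1.01 times that on the control diet. The Y-linked genes Eif2s3y (9.57 and 9.60), Kdm5d (6.98 and 6.91) and Uty (6.61 and 6.78) were expressed on both arrays, and Xist was under the limit on both (3.87 and 3.85). Subunits of oxidative phosphorylation (35 expressed, median -0.04) and cytosolic ribosomal proteins (30 expressed, median -0.04) had 0 genes at 2-fold.

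Among the enzymes that make bile acids, Cyp8b1 and Cyp7a1, both known targets of feedback by bile acids, were lower by 2-fold or more on the CA diet. Cyp8b1, the sterol 12-alpha-hydroxylase, had a log2 level of 11.32 with the control diet and 4.55 with the CA diet, a difference of -6.76 and the largest of any expressed gene. It was at least 88.2-fold lower. Cyp7a1, the 7-alpha-hydroxylase, had 10.50 and 7.59, a difference of -2.91 (7.54-fold lower), and its other expressed probe set gave -3.17. The other 4 expressed enzymes of the classic pathway all lay below 0 with small differences. Hsd3b7, the next dehydrogenase, had 12.24 and 11.79, the reductase Akr1d1 had 11.10 and 10.80, Akr1c6 had 13.65 and 13.51, and the side-chain hydroxylase Cyp27a1 had 11.55 and 11.23. In the alternative pathway Cyp7b1 differed by -0.44 and Cyp39a1 by 0.33. Cyp2c70, which makes muricholic acids in mice, differed by 0.49 and Cyp2a12, a hydroxylase of bile acids, by 0.41. Over the 3 bile acid synthesis lists together, 2 of 21 expressed genes were 2-fold lower, 0 were higher and the median was -0.14.

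Conjugation and the supply of taurine, with which mice conjugate bile acids, held another large difference. Csad, the decarboxylase of taurine synthesis, had 10.71 and 8.71, a difference of -2.01 (4.03-fold lower). Cdo1, the dioxygenase that comes before it, differed by -0.28, and Slc6a6, the taurine transporter, had 9.13 and 9.83, a difference of 0.70. The conjugating enzyme Baat had 10.20 and 9.81 and the ligase Slc27a5 13.08 and 12.95. In the wider list of methionine, one-carbon, cysteine and taurine metabolism, 14 of 17 expressed genes lay below 0, with a median of -0.28, and Csad was the 1 gene at 2-fold. Others were Nnmt, a nicotinamide methyltransferase (-0.85), Dmgdh (-0.66), Cth (-0.55) and Bhmt (-0.50). These are enzymes of sulphur and methyl group metabolism.

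The receptors and regulators of bile acids showed smaller differences than the enzymes, and 0 of 12 expressed members reached 2-fold in either direction. Nr0b2, the repressor, had 8.22 and 9.09, a difference of 0.87, on its single probe set. Nr1i2, the xenobiotic receptor PXR, which also binds bile acids, had 7.23 and 8.19, a difference of 0.96, and its other expressed probe set gave 0.60. Nr1h4, FXR itself, had 9.74 and 9.49. Klb, the co-receptor for intestinal FGF15, differed by -0.28 and its partner Fgfr4 by 0.15. Hnf4a, which drives Cyp7a1 and Cyp8b1, had 11.97 and 12.36. The 12 genes had a median of 0.17.

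Transport of bile acids and lipids differed at the canalicular membrane, where 2 of 10 expressed genes were at least 2-fold higher. Abcg5 had 9.28 and 10.71 (2.70-fold higher) and its partner Abcg8 had 8.80 and 9.55, a difference of 0.75. The pair forms the sterol exporter of bile. Abcb1a, a drug efflux pump, had 4.85 and 6.68 and was at least 3.54-fold higher, with 2.44 on its other expressed probe set. The bile salt pump Abcb11 (0.25), the phospholipid flippase Abcb4 (0.19), Abcg2 (0.23) and Atp8b1 (0.24) differed little. On the basolateral side Slc51b, the beta chain of the bile acid exporter OST, had 5.52 and 6.22, a difference of 0.71, while its alpha chain gene Slc51a was under the limit on both arrays and Abcc3 and Abcc4 differed by -0.04 and -0.17. Among uptake carriers 6 of 8 lay below 0, with Slc10a1, the main importer of hepatocytes, at -0.38. Of the 2 above 0, Slco1a1 differed by 0.07, and Slc10a2, the apical sodium-dependent carrier best known from ileum and bile ducts, had 5.34 and 6.54 (2.31-fold higher).

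Genes of cholesterol synthesis were lower together, and of 20 expressed members 16 were at least 2-fold lower. On the probe set used for each gene, all 20 lay below 0 and the median difference was -1.95. Hmgcs1, the synthase that makes HMG-CoA, had 12.88 and 10.00 (7.36-fold lower), and its 3 other expressed probe sets lay between -3.17 and -2.86. The kinases Mvk and Pmvk had 7.48 and 6.65 and 8.98 and 6.83, and the decarboxylase Mvd had 6.84 and 5.13. The early steps ranged from -0.83 to -2.88.

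Among the isoprenoid steps that follow, Idi1 and Fdps differed most. Idi1, the isomerase, had 11.97 and 8.79 (9.05-fold lower), and its other expressed probe set gave -4.07. Fdps, which makes farnesyl diphosphate, had 11.13 and 7.78 (10.3-fold lower). Fdft1, squalene synthase, had 11.26 and 9.35, a difference of -1.91. A further probe set of Fdft1 gave -1.98, and 2 low probe sets of it, at levels between 5.09 and 5.34, gave 0.10 and 0.09. Ggps1, which leads to protein prenylation instead of sterols, differed by -0.18, but its 3 other expressed probe sets lay between 0.23 and 0.35. The citrate lyase Acly, which supplies acetyl-CoA, differed by -0.67.

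From squalene onwards 10 of 11 expressed genes were at least 2-fold lower. Sqle, the epoxidase that is a control point of the pathway, had 9.87 and 4.69 and was at least 32.4-fold lower. Lss, the cyclase that makes lanosterol, had 8.67 and 6.79. Cyp51, the demethylase, had 10.11 and 7.34 (6.80-fold lower), with its 2 other expressed probe sets at -3.35 and -1.84. Tm7sf2, a sterol reductase, had 10.67 and 9.09. Msmo1, Nsdhl and Hsd17b7 remove the C4 methyl groups together, with Erg28 as their scaffold. Msmo1 had 12.18 and 8.51 (12.7-fold lower), Nsdhl 10.04 and 7.28, Hsd17b7 9.97 and 7.97, and Erg28 10.14 and 9.11. Of the last steps, the isomerase Ebp had 11.52 and 11.04 and was the 1 gene of the list under 2-fold. The desaturase Sc5d had 12.31 and 11.19, and the reductase Dhcr7 9.55 and 7.34.

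**Figure D2:**
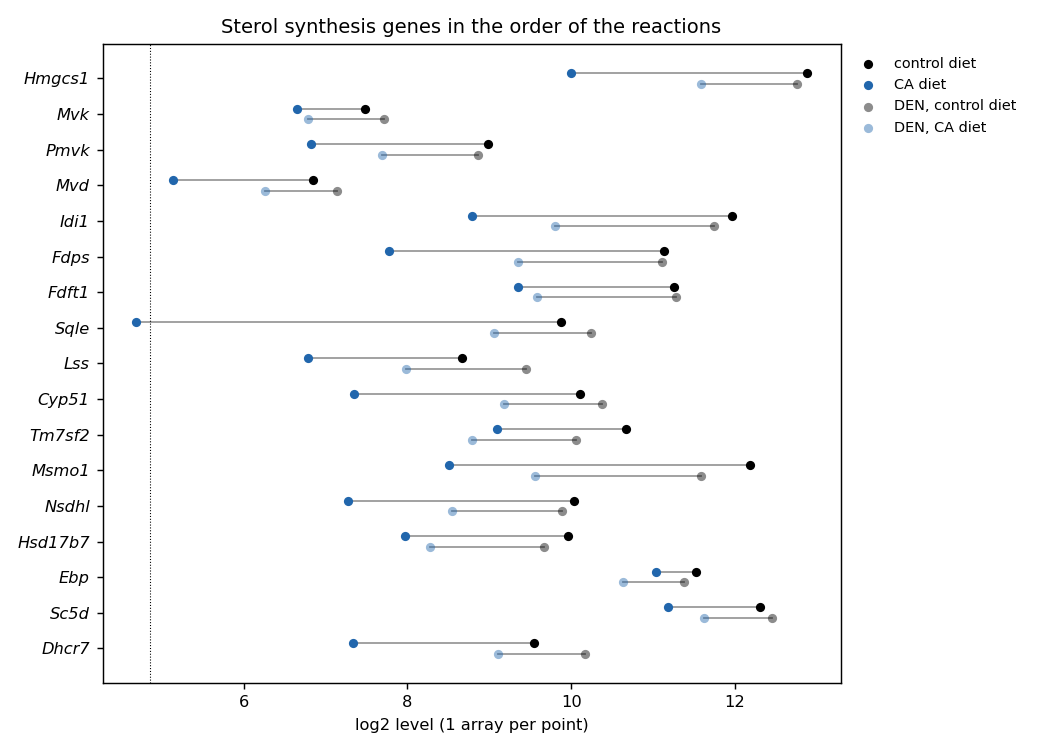
Log2 levels of 17 sterol synthesis genes on 1 array per group, in the order of the reactions from top to bottom, with the control diet joined to the CA diet without DEN (dark) and after DEN (pale). The dotted line is the limit of 4.855. On every row the CA diet lies left of the control diet, and without DEN the widest gap is that of Sqle.

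The regulators and uptake genes of sterols were split. Of 14 expressed members 2 were at least 2-fold lower, Tmem97, a sterol-regulated membrane protein (9.44 and 8.14), and Osbpl3, of the oxysterol-binding protein family (6.16 and 4.61, at least 2.47-fold). Insig1, the retention protein that SREBP2 itself induces, had 11.65 and 10.75, a difference of -0.90. Stard4, a sterol carrier, differed by -0.81, Scap, the SREBP escort, by -0.58 and Srebf2 by -0.37, with -1.06 on its other expressed probe set. Scarb1, the receptor for high-density lipoprotein, had 9.58 and 10.21. Targets of LXR, the receptor for oxysterols, lay mostly on the other side, with 10 of 13 above 0 and a median of 0.28. Besides Abcg5 and Abcg8 these were Rgs16 (0.99), Srebf1 (0.68), Lpl (0.46), Abcg1 (0.35) and Abca1 (0.28), while Pltp, the phospholipid transfer protein, differed by -0.94. The other expressed probe set of Abcg1 gave -0.07.

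Fatty acid genes differed at a few steps and not as a group. In fatty acid synthesis 3 of 15 expressed genes were at least 2-fold lower and the median was -0.12. These were Acss2, acetyl-CoA synthetase (11.39 and 9.61), Acacb, acetyl-CoA carboxylase 2 (7.59 and 6.38), and Me1, malic enzyme (10.27 and 9.24, with -0.83 on its other expressed probe set). Srebf1, the transcription factor of the pathway, had 10.28 and 10.96, Fasn, fatty acid synthase, had 9.99 and 9.69, and Scd1, the desaturase, had 14.07 and 14.11. Among desaturases and elongases 11 of 14 lay below 0. Elovl3 had 10.59 and 8.86 (3.33-fold lower) and Elovl5 had 12.17 and 10.91, and the desaturases Fads1 and Fads6 differed by -0.62 and -0.67.

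Of 21 expressed genes of lipid droplets and triglyceride storage 14 lay below 0. Pparg, a regulator of fat storage, had 6.56 and 5.47 (2.13-fold lower), and the droplet proteins Fitm1 (-0.94) and G0s2 (-0.74) followed. Cidea, another, had 5.19 with the control diet and lay under the limit with the CA diet, so it was at least 1.26-fold lower. Lpin1, a phosphatidate phosphatase, stood at 0.61. Fatty acid oxidation genes had a median of -0.07 over 24 members, with Cyp4a14, a target of PPAR-alpha, as the 1 gene past 2-fold (8.92 and 7.55), and Cpt1a and Ppara at -0.14 and -0.07. Among apolipoproteins and lipoprotein proteins Angptl8, an inhibitor of lipoprotein lipase, was 2.37-fold higher (6.93 and 8.17). Fabp5, a fatty acid binding protein, had 10.74 and 8.76 (3.95-fold lower), with -2.02 on its other expressed probe set. Rdh11, a retinol dehydrogenase, had 9.36 and 6.68 (6.39-fold lower) and -2.32 on its other expressed probe set.

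**Figure D3:**
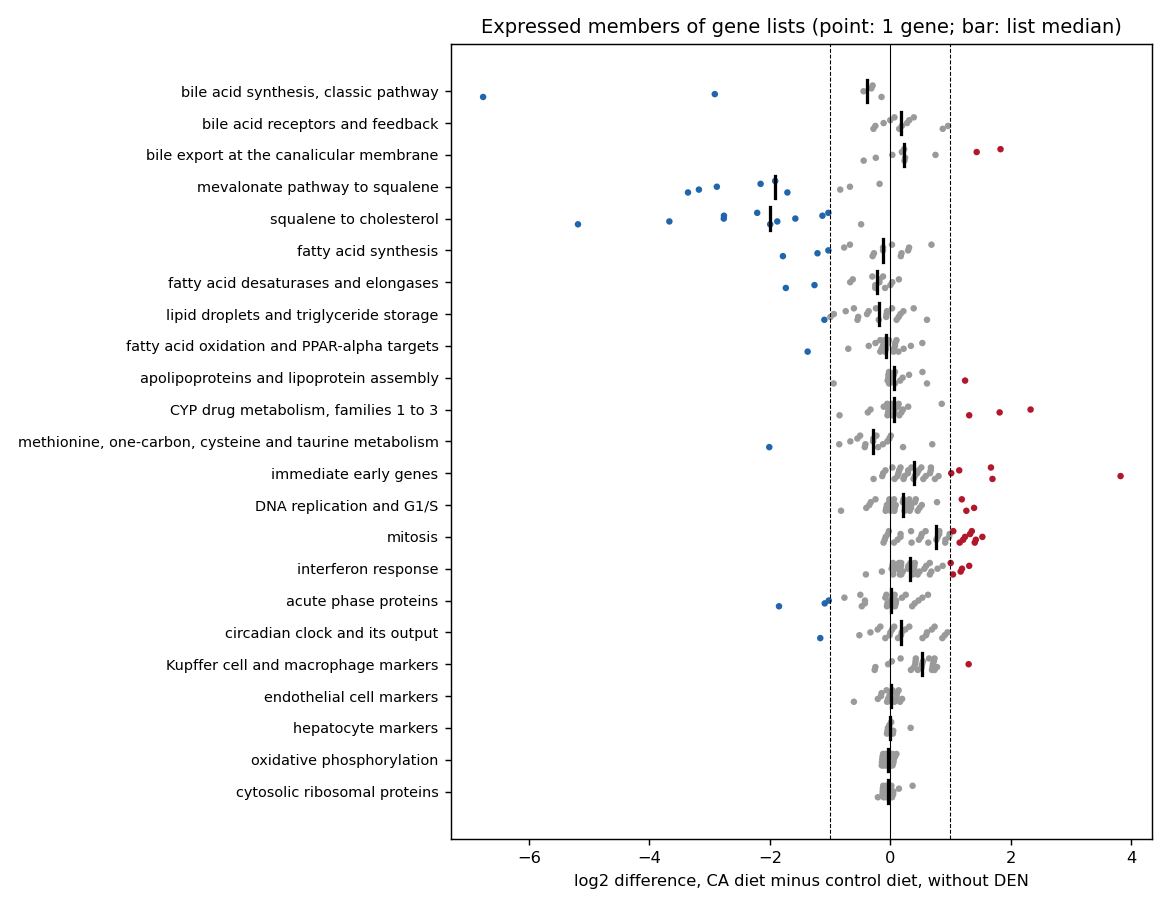
Log2 difference between the CA diet and the control diet without DEN for expressed members of 23 of the gene lists, each point 1 gene and each bar the list median, with dashed lines at 2-fold. Both sterol synthesis lists have medians near -2, the mitosis list has a median of 0.77 (0.35 with low values raised to the limit), and oxidative phosphorylation and ribosomal proteins lie close to 0.

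Drug-metabolising cytochromes of families 1 to 3 had 3 of 23 expressed members at least 2-fold higher, 0 lower and a median of 0.07. All of the 3 were of the Cyp2b group, of which Cyp2b10 is a known target of the receptor CAR. Cyp2b9 had 4.87 and 7.20 (5.03-fold higher), Cyp2b13 had 4.66 and 6.48 (at least 3.09-fold), and Cyp2b10 had 7.99 and 9.30 (2.48-fold), with 0.98 and 1.20 on its 2 other expressed probe sets. These genes are near in sequence, so the split between them is uncertain. Cyp3a11, the classic PXR target, had 14.28 and 14.35. Phase II genes at 2-fold were Gstm3 (9.40 and 10.73) and Gstm1 (12.04 and 13.05), glutathione transferases of 1 family, on the higher side and Sult5a1, a sulphotransferase, on the lower (7.13 and 6.10). Gstm1 and Gstm3 are also targets of NRF2, and of the 17 expressed genes of that list 14 lay above 0, with a median of 0.18. Nqo1, its best-known target, differed by 0.07 and Hmox1 by 0.71.

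Genes that differ between the sexes in mouse liver moved both ways. Of 17 expressed male-biased genes, Moxd1, a monooxygenase relative, had 8.95 and 4.21 (at least 17.1-fold lower), and Elovl3 and Sult5a1 were lower too. Hsd17b6, a steroid dehydrogenase, had 9.46 and 11.39 (3.79-fold higher). Of 15 expressed female-biased genes, the 3 Cyp2b genes were higher. Cyp4a14, Cyp17a1 (6.07 and 4.97) and Atp6v0d2 (6.76 and 5.69) were lower. Abcd2, a peroxisomal transporter, had 4.86 and 3.56 and was at least 1.01-fold lower, since the first value lay close to the limit, and its 2 other expressed probe sets gave -1.29 and 0.18. The medians were -0.14 and 0.14. Of 16 expressed genes of SOCS feedback and growth hormone signalling 7 lay above 0 and 9 below, with a median of -0.02, and 4 were at least 2-fold higher and 0 lower. The 4 included the feedback proteins of cytokine and growth hormone receptors, with Socs3 at 7.44 and 8.91 (2.75-fold), Socs2 at 7.34 and 8.50 (2.24-fold) and Cish at 7.11 and 8.13 (2.02-fold). The other expressed probe sets of Socs3 gave 1.17 and 1.70 and that of Socs2 1.26. The fourth was Onecut1 (HNF6), a hepatocyte factor that growth hormone induces, which had 7.05 and 8.14, and Bcl6, a repressor of female-biased genes, had 8.96 and 8.15.

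Immediate early genes, which respond within minutes to growth factors, cytokines and stress, were higher as a group. Of 32 expressed members 28 lay above 0, 5 were at least 2-fold higher, 0 lower, and the median was 0.40 against 0.015 over all expressed genes. Fos, a subunit of the AP-1 factor, had 5.19 and 9.02, a difference of 3.83 (14.2-fold higher) and the largest on the higher side. Jun, its partner, reached 7.70 on the CA diet, a difference of 1.70, with 1.05 on its other expressed probe set, and Egr1 had 7.56 and 9.23. Maff had 6.13 and 7.28 and Gadd45g 6.83 and 7.84. The phosphatases Dusp6 (0.80) and Dusp1 (0.55), Junb (0.68), Btg2 (0.67) and Klf6 (0.66) stayed under 2-fold, and Myc differed by 0.29. The other expressed probe set of Btg2 gave -0.04. Spry4, an inhibitor of growth factor receptor signals, had 5.65 and 7.08 (2.71-fold higher).

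Genes of cell division were higher from low levels. In the mitosis list 33 of 50 measured genes were expressed over the 4 arrays, a mean that the arrays after DEN enter too. Of these, 9 were at least 2-fold higher, 0 lower, 28 lay above 0 and the median was 0.77. Ube2c, the ubiquitin-conjugating enzyme of the anaphase complex, had 4.32 and 5.85 (at least 1.999-fold higher). Mki67, the Ki-67 antigen, had 3.90 and 5.32 (at least 1.38-fold). Top2a, topoisomerase 2, had 4.06 and 5.42 (at least 1.48-fold), and the survivin gene Birc5 had 3.73 and 5.05 (at least 1.15-fold). Cdk1, the mitotic kinase, had 5.08 and 6.29 (2.31-fold), and Cdc20, an activator of the anaphase complex, had 5.49 and 6.73 (2.37-fold), with 0.12 and 1.12 on its 2 other expressed probe sets. Stmn1, a microtubule destabiliser, had 7.33 and 8.38, with 0.22 on its other expressed probe set. Of the 9 higher genes 6 were under the limit on the control diet. With low values raised to the limit 3 genes of the list stayed at 2-fold and the median was 0.35. Among the 23 members whose level reached the limit as a mean of the 2 arrays without DEN, 5 were at 2-fold and the median was 0.59.

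In DNA replication and entry into the cycle the difference was smaller, with 3 of 37 at least 2-fold higher, 0 lower and a median of 0.21. In this list 27 members lay above 0 and 10 below. The median was 0.07 with low values raised to the limit. Among the 35 members that reached the limit as a mean of the 2 arrays without DEN it was 0.09. Ccnd1, the cyclin D1 gene of G1, had 7.20 and 8.38 (2.28-fold), and its 2 other expressed probe sets gave 1.03 and 1.12. Mcm6, of the replication helicase, had 5.22 and 6.49 (2.40-fold), with 1.54 on its other expressed probe set. Mcm2 differed by -0.82, with 0.50 on its other expressed probe set. Ccne2, a cyclin E gene, had 4.78 and 6.17 (at least 2.49-fold). Pcna differed by 0.29 and the inhibitor Cdkn1a by 0.52. The p53 target list had 0 of 17 at 2-fold and a median of 0.11. Afp and Gpc3, genes of fetal liver and liver tumours, were under the limit on both arrays without DEN (4.77 and 4.10, and 4.14 and 4.41).

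Interferon-stimulated genes lay on the higher side almost throughout. Of 39 expressed members 37 lay above 0, against 6163 of all 11651 expressed genes, and the list median was 0.34. At least 2-fold higher were Bst2 (8.52 and 9.83), an antiviral membrane protein, Ifi27l2a (6.18 and 7.37), Ifi27 (9.56 and 10.73), Usp18 (6.62 and 7.66), a brake on interferon signals, and Irf7 (6.69 and 7.69), a transcription factor of the response. The other expressed probe set of Ifi27 gave 1.15. Ly6e, another gene that interferon induces, had 9.06 and 10.51 (2.73-fold higher), but 0.28 on its other expressed probe set. Among chemokines Cxcl10 (4.62 and 6.29, at least 2.70-fold) and Cxcl1 (8.52 and 9.79, 2.41-fold) were higher and Cxcl11 (6.39 and 5.30) was lower. The genes Cxcl9, Cxcl10 and Cxcl11 are all induced by interferon gamma.

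NF-kB targets and cytokines had 1 of 19 expressed members at 2-fold, the adhesion molecule Icam1 (5.51 and 6.55). Vcam1 (0.96, with -0.004 and 0.74 on its 2 other expressed probe sets) and Tnfaip3 (0.91) followed. Tnf and Il6 were under the limit on both arrays, and Il1b differed by -0.08 and Lcn2 by -0.47. Acute phase proteins went the other way where they passed 2-fold, although 13 of 25 lay above 0 and the median was 0.013. Orm2, an orosomucoid, had 10.67 and 8.82 (3.60-fold lower), Apcs, serum amyloid P, had 11.06 and 9.97, and Saa2 had 11.54 and 10.52. Saa1, near-identical to Saa2, had 12.74 and 12.32. Lbp, the lipopolysaccharide-binding protein, stood at 0.63, with 0.03 on its other expressed probe set.

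Markers of Kupffer cells and other macrophages lay mostly above 0, as the interferon genes did and the acute phase genes did not. Of 23 expressed markers 20 lay above 0, with a median of 0.52, and their summed linear signal was 7433 with the control diet and 10882 with the CA diet, a ratio of 1.46. Marco, a scavenger receptor, had 5.51 and 6.81 (2.47-fold), with 0.49 on its other expressed probe set. Cd5l (0.78), Cd163 (0.74), Adgre1 (0.71), C1qa (0.70), Cd68 (0.69) and Clec4f (0.42), the Kupffer cell lectin, stayed under 2-fold. In pooled liver RNA fewer or more cells of a type and less or more RNA per cell cannot be told apart. Mmp12, a metalloproteinase of macrophages, had 3.96 and 5.14 and was the 1 matrix gene at 2-fold, but with the low value raised to the limit it was only at least 1.22-fold higher and 0 matrix genes were at 2-fold. Collagens lay above 0 without reaching 2-fold, with Col3a1 at 0.58 and Col1a2 at 0.49, and the actin gene Acta2 of stellate cells at -0.53. The part of macrophages in the interferon and immediate early groups was not tested.

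All 9 expressed cholangiocyte markers lay above 0, though only 5 of them reached the limit as a mean of the 2 arrays without DEN. Their median was 0.36, or 0.18 with low values raised to the limit, with a summed linear signal of 259 and 392, a ratio of 1.51. Krt23, a keratin, had 5.09 and 6.64 (2.93-fold higher) and was the 1 gene of the list at 2-fold. The defining keratins Krt19 (4.21 and 4.53) and Krt7 (3.81 and 4.08) were under the limit on both arrays, and Epcam had 5.41 and 5.59. The part of bile duct cells in the level of Slc10a2 was not tested. Endothelial markers (17 expressed, median 0.01) and stellate cell and fibroblast markers (17 expressed, median 0.05) had 0 genes at 2-fold. Of the 3 expressed neutrophil markers S100a8 was under the limit on both arrays (3.71 and 4.82), S100a9 had 4.59 and 5.22, and Csf3r had 6.61 and 6.56.

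Stress responses other than the immediate early genes showed small differences of 1 sign or single genes. Chaperones of the endoplasmic reticulum lay above 0 in 16 of 18 cases, with a median of 0.19 and 0 genes at 2-fold, and Hspa5 (BiP) had 12.52 and 12.79. Heat shock proteins lay above 0 in 12 of 14 cases, with Hsph1 at 0.75. The amino acid response held opposite genes. Asns, asparagine synthetase, had 7.27 and 4.54 (at least 5.33-fold lower, with -3.70 on its other expressed probe set), and Chac1, which degrades glutathione, had 6.40 and 7.51 (2.16-fold higher). Trib3 differed by -0.21 and the list median was -0.08.

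Genes outside the lists were among those with the largest differences. On the lower side Fmn1, a formin, had 7.24 and 4.37 (at least 5.21-fold), Paqr9 had 9.57 and 7.67, with -1.73 on its other expressed probe set, and the lysosomal nuclease Dnase2a had 11.55 and 9.79. On the higher side Obp2a, an odorant-binding protein of the lipocalin family, had 5.16 and 7.34 (4.55-fold). Ptgds, prostaglandin D synthase and also a lipocalin, had 6.72 and 8.31, with 2.91 on its other expressed probe set. Serpina4-ps1 had 8.76 and 10.23 (2.77-fold), with 1.44 and 1.55 on its other expressed probe sets. For Gcnt2, a glycosyltransferase (7.20 and 8.61), and Slc39a6, a zinc carrier (5.01 and 6.36), the other expressed probe sets stayed between 0.33 and 0.49.

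**Figure D4:**
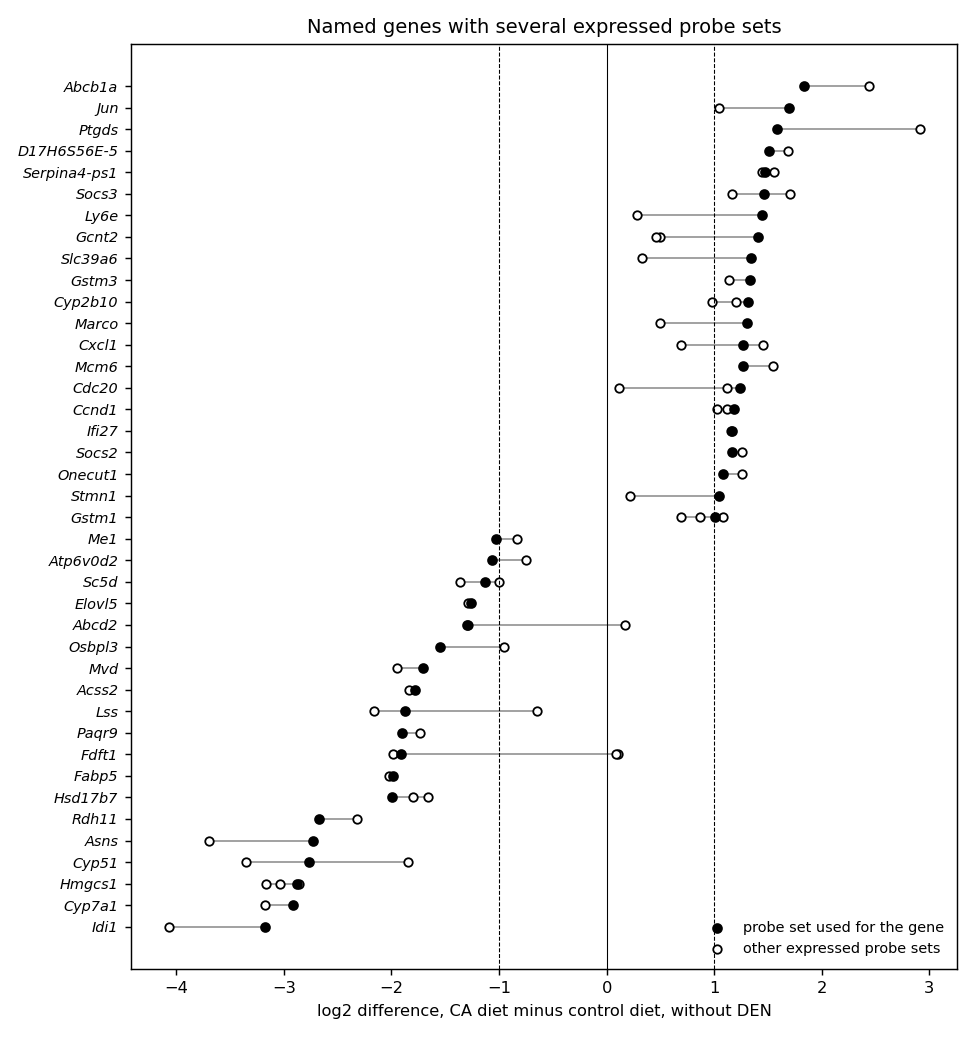
Log2 difference between the CA diet and the control diet without DEN for genes with several expressed probe sets, with the probe set used for the gene (filled) and the others (open), 1 array per group and dashed lines at 2-fold. Hmgcs1, Cyp7a1, Acss2 and Ifi27 have close values, while Fdft1, Ly6e, Abcd2 and Cdc20 have a probe set near 0.

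The same diet was also given to mice that had received DEN, and the pair of arrays from these shares no array with the pair without DEN. After DEN, 31 of 11651 genes stood 2-fold or more higher (0.266%) and 55 stood 2-fold or more lower (0.472%), and the SD of all differences was 0.261 against 0.306 without DEN. Of the 69 genes lower without DEN, 63 were on the same side after DEN and 28 were at 2-fold there too, while 54.86% of all expressed genes lay below 0 after DEN. Of the 77 higher genes 56 were on the same side and 9 were at 2-fold, while 44.73% of all lay above 0. The median differences were -1.40 without DEN and -0.72 after it for the lower genes, and 1.21 and 0.35 for the higher genes. Without DEN the difference was the larger one for 66 of the 69 lower genes and for 73 of the 77 higher genes. These genes were chosen by their size without DEN, so this is a description.

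Sterol synthesis genes had a median of -1.18 after DEN, with 13 of 20 at 2-fold, and 18 of 20 had a smaller difference than without DEN. Sqle had 10.24 and 9.06 after DEN, where without DEN it was under the limit on the CA diet. Cyp7a1 showed the reverse order, with 9.58 and 4.80 after DEN, and Cyp8b1 had 10.07 and 4.85. Obp2a (4.61 and 7.82) and Socs2 (8.54 and 9.90) were among the few with a larger difference after DEN. The mitosis list had a median of -0.06 after DEN, with Mki67 at 7.15 and 6.99. The interferon response had a median of 0.44 and macrophage markers had 0.41. Whether the diet differences with and without DEN differ was not tested.

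**Figure D5:**
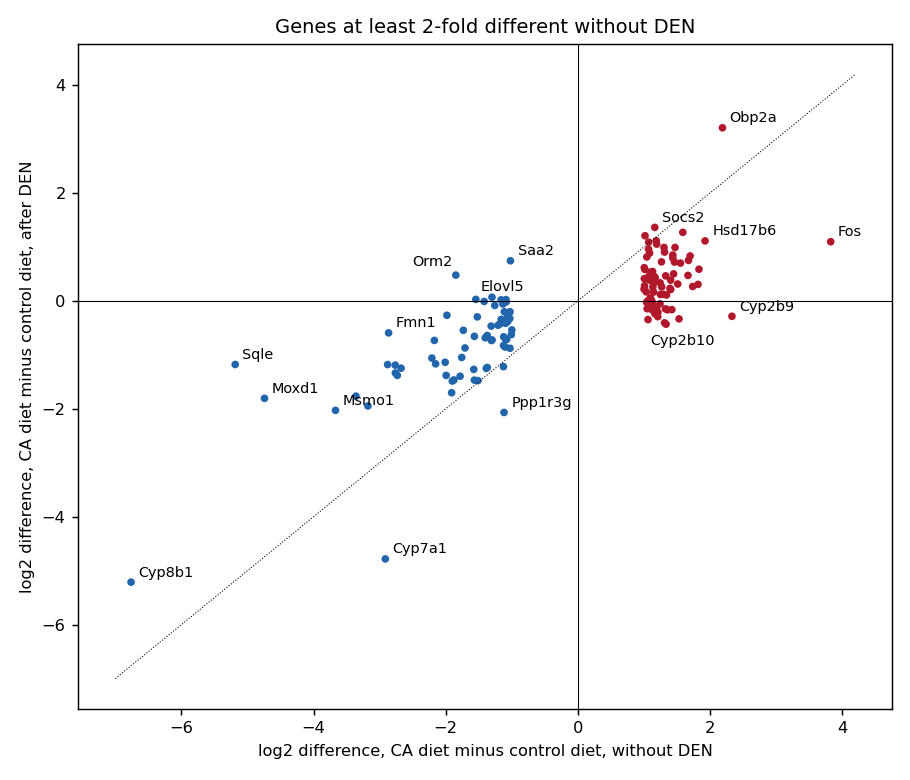
Log2 difference between the CA diet and the control diet after DEN (vertical axis) against that without DEN (horizontal axis) for the 146 genes at least 2-fold different without DEN, each point 1 gene from 4 arrays, with equal differences on the dotted line. Most points lie nearer to 0 on the vertical axis, and Cyp7a1, Obp2a, Socs2 and Ppp1r3g lie beyond the line.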

How the data were processed

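Per the labels' protocols, Trizol RNA of pooled livers (1 µg) was labelled with biotin for a mouse expression array. The deposited values are log2 expression values from RMA, for which the submitters' processing notes name Partek 6.5. RMA makes the distributions of the arrays alike, so a difference of most genes in 1 direction would be removed. The sources used here do not give its options. The 4 array medians ran from 4.843 to 4.865. There is no detection call, and the number of arrays limits the precision.

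Of 45101 probe sets, 34958 had 1 gene symbol in the platform annotation, 932 several and 9211 none. RefSeq gene identifiers (GRCm38.p6) matched 34754 and changed 0 symbols. Differences were computed with Python 3.11.15, numpy 2.4.6 and pandas 2.3.3, and loess centring with statsmodels 0.14.6, without any test. The 60 gene lists (13 of cell type markers) held 1159 genes, of which 117 are not analysed here. Members and lists were chosen with earlier results of these data known. Genes are named if they were among the 25 with the largest difference each way after low values were raised to 4.855 (predicted genes left out), if they were list members at 2-fold, if they were among the next 6 of a list by size, or if they were key genes of a list. The genes under the limit or under 2-fold that describe a pathway or cell type were added from the lists. Alternatives were no filter, 2 stricter filters, a 1.5-fold threshold, quantile normalization, every probe set alone, median centring, loess centring (fraction 0.3), averaging the probe sets of a gene, low values raised, and for lists all measured members. The steps were tested on simulated data with known differences.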

Additional observations from a re-analysis of the deposited data

Results flagged for a closer look

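Several values of the CA diet differed in sign without and after DEN, with 1 array per group, and the difference between the effects was not tested. Cyp2b9 stood at 2.33 on the log2 scale without DEN and at -0.29 after DEN, and Cyp2b10 at 1.31 and -0.41. Both are cytochromes of the Cyp2b group, and their sequences are near enough that the array may not separate them. Slc10a2, the apical bile acid carrier, stood at 1.21 without DEN and at -0.29 after it.

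Among genes of dividing cells, Ube2c stood at 1.53 and -0.33, and the median of the mitosis list at 0.77 and -0.06. Without DEN, Ube2c was under the limit on the control diet (4.32), while after DEN it had 7.43 and 7.09. With low values raised to the limit the list median without DEN was 0.35. Id1, a target of BMP signals that also regulate iron, stood at 1.06 and -0.35. The acute phase genes Orm2 and Saa2 were lower on the CA diet without DEN (-1.85 and -1.02) and on the other side after DEN (0.48 and 0.74).

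Of 3031 expressed probe sets without a single gene name, which the comparison did not use, 9 were at least 2-fold higher on the CA diet without DEN (0.297%) and 13 at least 2-fold lower (0.429%). Their differences reached 1.78 and -1.88.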

How the results depend on the processing

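The counts of 77 higher and 69 lower genes stayed within 1.5 times under most alternatives. They were 87 and 74 without a filter, 76 and 70 with quantile normalization, 70 and 74 with median centring, which shifted the median of expressed genes by -0.04, and 55 and 57 with the mean over probe sets. With low values raised to the limit they were 63 and 64. A filter at the upper quartile left 46 higher genes and 47 lower ones, since fewer genes were counted, and a 1.5-fold threshold gave 290 and 206. Chosen after seeing the data, the requirement that both arrays without DEN reach the limit gave 58 and 53, and that every expressed probe set of a gene pass 2-fold gave 61 and 58. A called gene with 1 expressed probe set meets the last requirement by itself. Where other expressed probe sets existed, 13 of 29 higher genes and 15 of 26 lower genes met it. The median of the list from squalene to cholesterol was -1.99, and -1.58 with the mean over probe sets. The mitosis median of 0.77 was 0.35 with low values raised and 0.52 over all measured members. Of 129 named genes that were recomputed, 99 of them at 2-fold, 20 fell under 2-fold with the mean over probe sets, 10 with low values raised, 5 with median centring, 4 with quantile normalization and 3 with loess centring. None of these 99 genes changed sign in these 5 alternatives. Of the others, Acta2 (-0.53) came to just above 0 with the mean over probe sets, and Alb and Scd1, near 0, also changed sign. Of 60 list medians 11 did so, among them the acute phase, hepatocyte and endothelial lists, and the sterol, mitosis, immediate early, interferon and macrophage lists did not. No paired analysis was possible because each group has 1 array, and for the same reason no array could be left out. Depth is not defined for arrays, and signals near the limit bound what can be read.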

Other observations

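Clock genes and genes under clock control differed in both directions, with 1 of 23 expressed members at 2-fold and a median of 0.18. Arntl (BMAL1), the activator of the clock, had log2 levels of 5.34 with the control diet and 4.18 with the CA diet (at least 1.40-fold lower), and Clock, its partner, differed by -0.51. The repressor Per1 had 7.29 and 8.19, a difference of 0.91, Cry1 had 5.70 and 6.39, and Ciart had 6.12 and 6.98. Fkbp5, which glucocorticoids also induce, had 8.39 and 9.34. Dbp, a clock-driven factor, had 11.02 and 11.20. The sources used here do not give the time of sampling, and its part in these values was not tested.

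Pericentral genes that depend on WNT signals lay below 0 in 14 of 19 cases, with a median of -0.25 and 0 genes at 2-fold. Lgr5, a receptor that strengthens WNT signals, had 6.52 and 5.61, Oat, ornithine aminotransferase, had 12.44 and 11.63, and Glul, glutamine synthetase, had 12.26 and 11.98. Periportal and urea cycle genes had a median of -0.04 over 17 members. In glucose metabolism Pfkfb3, an activator of glycolysis, had 7.23 and 8.31 (2.12-fold higher) and Ppp1r3g, a glycogen-targeting subunit, had 6.49 and 5.37 (2.17-fold lower), and the 18 expressed genes had a median of 0.15. Among iron genes Id1 had 5.78 and 6.84, Hjv, the hemojuvelin gene, had 8.55 and 7.69, and the hormone gene Hamp had 12.19 and 12.45. Of 21 hepatocyte transcription factors and identity genes, Onecut1 was the 1 at 2-fold, with Foxa1 at 0.73 and Prox1 at -0.73.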
